A study of Mus musculus with 4 samples.

Results

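Retinoid metabolism genes were examined in hepatocytes of mice that lack Pnpt1, the gene of the RNA exonuclease PNPase, in the liver. The set held 8 genes, namely Rdh7, Rdh10, Rdh11, Rdh16, Dhrs3, Rbp4, Aldh1a1 and Cyp26a1. They were found through the RefSeq accession of each array probe, which gave 11 probes of 41174 on the array and all 8 genes among the 11495 named genes measured. All 11 probes were well above background in both genotypes on all 4 arrays. HepKO mice carried 1 Albumin-Cre allele and floxed Pnpt1 alleles (Albumin-Cre/wt Pnpt1 fl/fl), while WT mice had Pnpt1 fl/fl and no Cre, both on C57BL/6J, from breeding with Pnpt1 neo-fl alleles. Albumin-Cre acts in hepatocytes, and whether other liver cells of HepKO mice keep Pnpt1 was not tested. The animals were untreated as far as the labels say. Each of 2 litter-, age- and sex-matched pairs was 1 HepKO and 1 WT mouse. The pair labelled male was aged 12.29 weeks (some of its labels give another age) and the pair labelled female 4.29 weeks. Each pair was hybridised on 2 two-colour arrays with the dyes exchanged. Replicate 1 had HepKO RNA in Cy5 and replicate 2 had it in Cy3. Both arrays carried the same RNA extracts, so n = 2 pairs throughout.

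Retinol reaches the liver as retinyl ester, is stored mainly in stellate cells, and leaves hepatocytes bound to Rbp4. Retinol dehydrogenases and reductases interconvert retinol and retinal, Aldh1a enzymes oxidise retinal to retinoic acid, and Cyp26 enzymes break retinoic acid down. Retinoic acid binds the nuclear receptors RAR and RXR, and Cyp26a1 and Dhrs3 are among the genes it switches on.

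Several facts of the arrays precede the values. In both genotypes 3 Y-linked genes (Ddx3y, Eif2s3y, Kdm5d) exceeded background on both arrays labelled female and on neither labelled male, and Xist showed the reverse. Another Y-linked gene, Zfy2, did not follow this pattern, with 1 probe above background on 4 HepKO and 2 WT arrays and the other on 0. The labelled sex of both pairs ran against Xist and those 3 genes. The printed ages may therefore belong to the other pair. The labelled names are used here all the same, and sex, age and slide differ together between the pairs. The targeted gene Pnpt1 did not pass the test by its brighter probe (limma adjusted p = 0.747 over 22807 probes), with log2 ratios of 0.31 and 0.058 (male pair) and -0.38 and -0.38 (female pair). The dimmer Pnpt1 probe had -0.67 and -0.32 (male pair) and -0.50 and -0.60 (female pair) and did not pass either (limma adjusted p = 0.0800). Pnpt1 thus does not bear out the labelled genotypes, and HepKO and WT below mean the libraries labelled so. The place of the probes relative to the deleted part is not stated. The protocol names collagenase perfusion and washing but no sort, and the preparations carried RNA of other cells: 10 of 10 macrophage, 10 of 14 endothelial, 6 of 10 lymphocyte, 7 of 14 stellate and 1 of 5 cholangiocyte markers measured were higher in HepKO and 0 were lower, while 1 of 12 hepatocyte markers was higher and 1 lower. The summed intensity of the hepatocyte markers was 1079310 to 1485000 in HepKO and 985676 to 1338390 in WT over the 4 arrays. Such sums add over probes and follow the brightest ones. Hpx, the hepatocyte marker called higher, was the brightest in HepKO (mean log2 intensity 18.20, against 16.53 in WT). Cyp2e1, the one called lower, had 13.68 in HepKO and 16.06 in WT. The part of the other cells in the results was not tested. In such mixed RNA, fewer cells of a type and less RNA per cell cannot be told apart.

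Of the 8 genes, 2 were lower in HepKO, Rdh16 and Rdh10, and 0 were higher (limma, adjusted p below 0.05). The other 6 did not pass. Over all 11495 genes, 3.71% were lower and 12.0% higher by the same rule, 15.7% in either direction. The median log2 HepKO over WT of the 8 genes was -0.63, against 0.083 for all genes. The ratios of Rdh7, Rdh10, Rdh11 and Rdh16 were below 0 on all 4 arrays, 4 of 8 genes against 25.0% of all genes, and 0 of 8 were above 0 on all 4, against 39.4% of all genes. Ratios are log2 HepKO over WT, the mean of 2 pairs ± the moderated SE of limma, and adjusted p-values come from that model over all genes. Levels are normalized log2 intensity of a probe in 1 channel and are compared only within a probe. The summed marker intensities, which add over probes, are the exception.

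**Figure D1:**
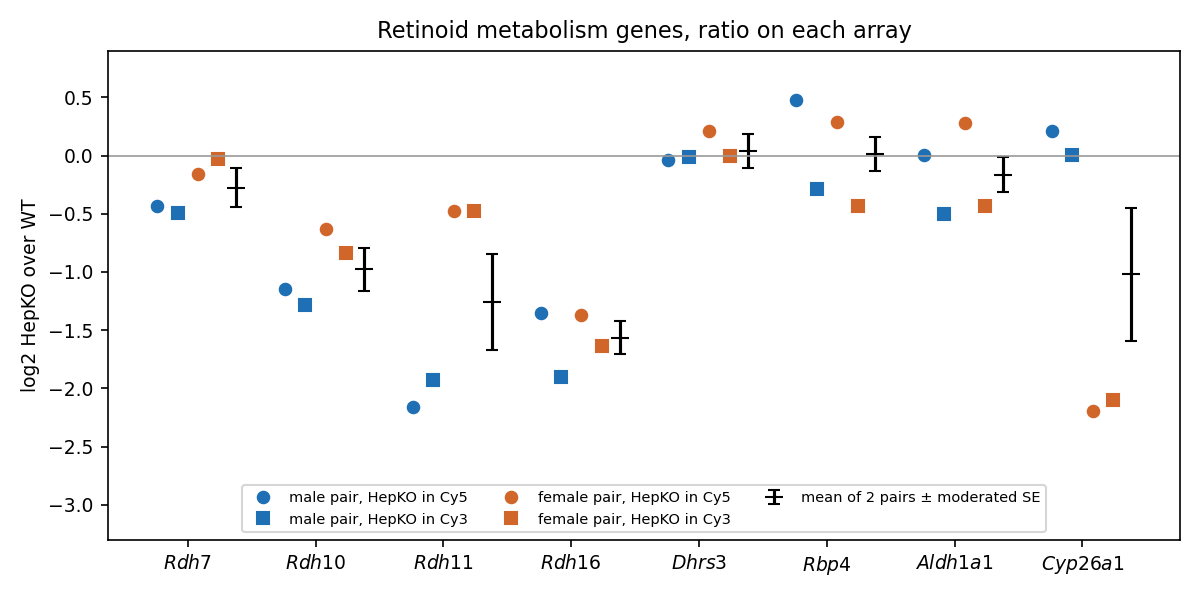
Log2 HepKO over WT of the 8 retinoid metabolism genes (vertical axis), with 1 point for each of the 4 arrays and a bar for the mean of 2 pairs ± the moderated SE. Rdh16 and Rdh10 lie below 0 on all 4 arrays, Rdh11 and Cyp26a1 are split by pair, and Rbp4 and Aldh1a1 are split by dye.

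Among the dehydrogenases, Rdh16 had the clearest decrease. Mouse Rdh16 encodes a short-chain dehydrogenase that acts on retinols and on hydroxysteroids. By level, HepKO arrays of the male pair read 9.85 and 9.17, against 11.20 and 11.07 for WT, and those of the female pair read 10.26 and 9.94, against 11.63 and 11.58 for WT. All HepKO levels lay below all WT levels. The levels of a genotype come from 2 mice. How many of all genes separate in this way, as Rdh10 and Rdh11 also do below, was not counted. The log2 ratios were -1.35 and -1.90 (male pair) and -1.37 and -1.64 (female pair). The mean was -1.56 ± 0.14 (adjusted p = 0.0152), so that HepKO signal was 0.338 times the WT signal. By pair it was 0.324 times WT in the male and 0.353 times WT in the female pair, a gap that 72.6% of all genes exceeded. The call ended with the background model fitted on all spots (adjusted p = 0.0943) and without the filter on dim probes (0.0689), where 0 of all genes passed.

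Rdh10 oxidises retinol to retinal, the step before retinoic acid. Its HepKO arrays of the male pair read 8.05 and 7.94, against 9.20 and 9.22 for WT, and those of the female pair read 8.45 and 8.47, against 9.08 and 9.31 for WT. The HepKO and WT levels did not overlap. The log2 ratios were -1.15 and -1.29 (male pair) and -0.63 and -0.84 (female pair), with a mean of -0.98 ± 0.18 (adjusted p = 0.0424), or 0.508 times WT. The second Rdh10 probe was also below 0 on 4 of 4 arrays, with -1.07 and -0.86 (male pair) and -0.52 and -0.52 (female pair). Its mean was -0.74 ± 0.17 (limma adjusted p = 0.0725 over 22807 probes), which did not pass. In that fit over probes the first probe did not pass either (adjusted p = 0.0519). The Rdh10 call lay at the threshold. It was lost without male pair replicate 2 (adjusted p = 0.0615), without female pair replicate 2 (0.0506) and in 6 other settings given in the closing section.

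Rdh11 reduces retinal to retinol. The HepKO arrays of the male pair read 10.41 and 10.27, against 12.57 and 12.20 for WT, and those of the female pair read 11.58 and 11.44, against 12.06 and 11.92 for WT. HepKO lay below WT throughout, and the gap was wide in the male pair and narrow in the female pair. The log2 ratios were -2.16 and -1.93 (male pair) and -0.47 and -0.48 (female pair). HepKO signal was thus 0.243 times WT in the male and 0.719 times WT in the female pair. The mean of -1.26 ± 0.41 did not pass (adjusted p = 0.115). The second Rdh11 probe gave -1.89 and -1.85 (male pair) and -0.88 and -0.61 (female pair), a gap in the same direction. The difference between the pairs of the first probe, -1.57 as male minus female, was exceeded in size by 1.53% of all genes, whose median gap was 0.243. With 1 replicate per pair it was not tested.

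Rdh7, a relative of Rdh16 that also acts on retinols and hydroxysteroids, did not pass the test. For this gene, HepKO arrays of the male pair read 15.48 and 15.22, against 15.91 and 15.71 for WT, and those of the female pair read 15.61 and 15.52, against 15.78 and 15.55 for WT. The levels of the groups overlapped across pairs. The log2 ratios were -0.43 and -0.49 (male pair) and -0.16 and -0.027 (female pair). The mean was -0.28 ± 0.17 (adjusted p = 0.300), with a 95% interval from -0.74 to 0.18.

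The Rdh16 and Rdh7 loci belong to a run of related dehydrogenase genes on chromosome 10 (order of protein-coding genes from the annotation of GRCm38.p6). In this run Rdh1 and Rdh19 were not measured. Rdh16f2, a near relative of Rdh16, had -3.15 (male pair) and -1.84 (female pair), with a mean of -2.50 ± 0.35 (adjusted p = 0.0258). Sdr9c7, which lies beyond Rdh7, was lower at -1.43 ± 0.17 (adjusted p = 0.0194). The neighbours outside the pathway list were named after their values were seen. Rdh9, on the other side of Rdh16, had -0.47 ± 0.19 (adjusted p = 0.158) and did not pass. Hsd17b6, beyond Sdr9c7, had 0.087 ± 0.15 (adjusted p = 0.700). Beyond this run, Gpr182 had 0.46 and Prim1 had 1.13, and neither passed (adjusted p = 0.349 and 0.0577). These genes are similar in sequence, and whether a probe binds RNA of more than 1 of them was not analysed here.

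**Figure D2:**
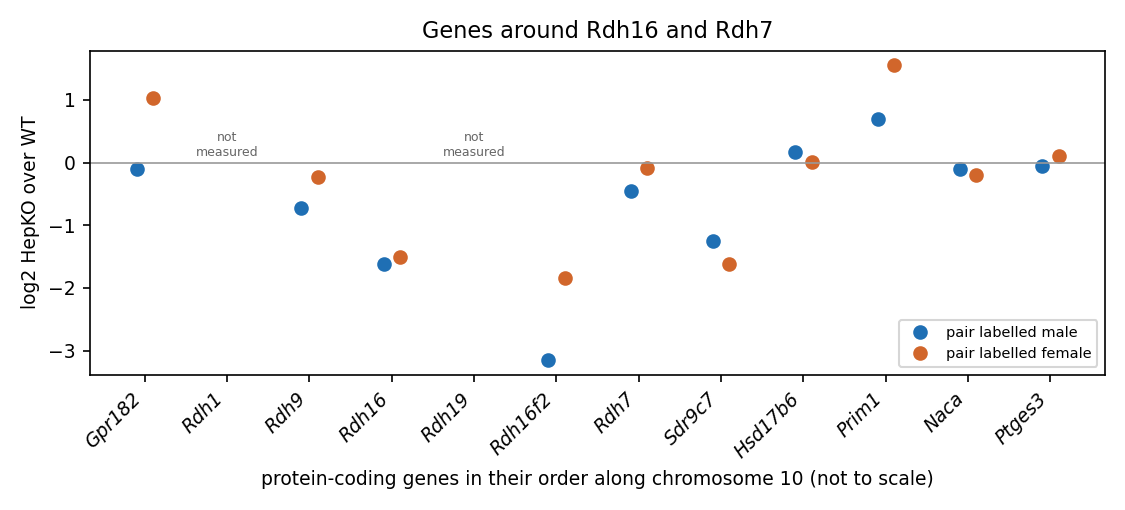
Log2 HepKO over WT (vertical axis) of protein-coding genes in their order along chromosome 10 around Rdh16 and Rdh7 (horizontal axis, not to scale), with 1 point per pair. Rdh16, Rdh16f2 and Sdr9c7 lie below -1 in both pairs, whereas Rdh7 lies at -0.46 and -0.095 and Hsd17b6 at 0.17 and 0.0039.

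The promoter window of Rdh16 is shown because this gene had the largest decrease in the set by the mean of 2 pairs. Within a single pair, Cyp26a1 (-2.15, female pair) and Rdh11 (-2.04, male pair) had lower ratios. The window covers 250 bases before to 50 after the gene start (RefSeq, GRCm38.p6, chr10:127800903-127801202, plus strand). Capitals mark a TATAAA match, whose first base lies at -82 from the gene start. TATAAA was found on either strand in 13.6% of 32851 such windows of all genes. Among the members, windows of Rbp4 (first base at -28) and Cyp26a1 (at 30) held it as well.
Rdh16: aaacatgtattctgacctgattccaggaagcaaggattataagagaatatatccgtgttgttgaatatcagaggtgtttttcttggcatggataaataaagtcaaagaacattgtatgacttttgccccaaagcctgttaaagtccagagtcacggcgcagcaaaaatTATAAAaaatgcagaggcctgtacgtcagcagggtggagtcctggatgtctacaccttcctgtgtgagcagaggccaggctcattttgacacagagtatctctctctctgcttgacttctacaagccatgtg
The window held no direct repeat of the receptor half-site with a spacing of 1, 2 or 5 bases, the spacings at which RAR and RXR are known to bind.

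Rbp4, Aldh1a1 and Dhrs3 did not pass the test. Rbp4 carries retinol from the liver into plasma. By level, HepKO arrays of the male pair read 17.46 and 16.92, against 16.99 and 17.21 for WT, and those of the female pair read 17.21 and 16.87, against 16.92 and 17.30 for WT. The groups overlapped, and the sign of the ratio followed the dye. With HepKO in Cy5 the log2 ratio was 0.47 (male pair) and 0.29 (female pair), and with HepKO in Cy3 it was -0.29 and -0.43. After averaging over dyes the mean was 0.011 ± 0.15 (adjusted p = 0.965), with a 95% interval from -0.39 to 0.41. That interval takes no account of the gap between dyes, which was 0.74. Median centring gave -0.61, which lies outside it.

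Aldh1a1 oxidises retinal to retinoic acid. The HepKO arrays of the male pair read 15.45 and 15.14, against 15.45 and 15.64 for WT, and those of the female pair read 16.42 and 15.99, against 16.14 and 16.42 for WT. Within a pair the HepKO and WT levels lay close, and both were higher in the female pair. The log2 ratio was 0.0031 and 0.28 with HepKO in Cy5, and -0.50 and -0.44 with HepKO in Cy3. The mean was -0.16 ± 0.15 (adjusted p = 0.468), with a 95% interval from -0.57 to 0.24. Here too the interval leaves out the gap between dyes (0.61), and median centring gave -0.62, outside it. Dhrs3, which reduces retinal to retinol and is induced by retinoic acid, had 2 probes. The brighter gave -0.039 and -0.0098 (male pair) and 0.21 and -0.0056 (female pair), with a mean of 0.039 ± 0.14 (adjusted p = 0.869). The dimmer gave -0.41 and -0.093 (male pair) and -0.064 and 0.097 (female pair). The 95% interval of the Dhrs3 mean ran from -0.36 to 0.44, so a change of 2-fold in either direction lay outside it.

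**Figure D3:**
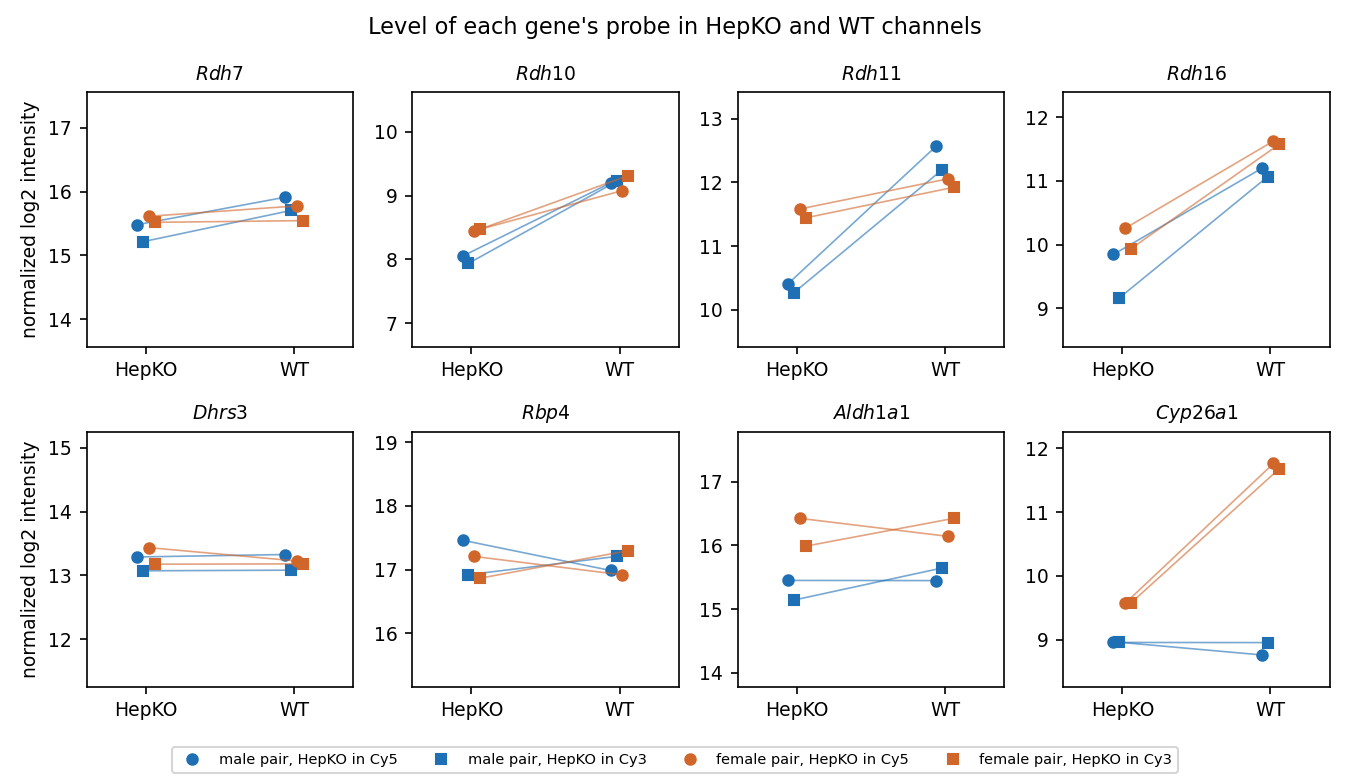
Normalized log2 intensity (vertical axis, 4 units in each panel) of the probe that stands for each gene, in HepKO and in WT, with a line joining the 2 channels of 1 array. Cyp26a1 is high in WT of the female pair alone, at 11.76 and 11.68, and Rdh11 in HepKO is lowest in the male pair.

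Cyp26a1 encodes the hydroxylase that clears retinoic acid, and retinoic acid induces it. Its HepKO arrays of the male pair read 8.97 and 8.96, against 8.76 and 8.95 for WT, and those of the female pair read 9.57 and 9.58, against 11.76 and 11.68 for WT. The WT mouse of the female pair was thus the one high sample, while HepKO and WT of the male pair were both low. The log2 ratios were 0.21 and 0.0023 (male pair) and -2.19 and -2.10 (female pair). HepKO signal was 1.08 times WT in the male and 0.226 times WT in the female pair. The mean of -1.02 ± 0.57 did not pass (adjusted p = 0.271), with a 95% interval from -2.59 to 0.55. The gap between the pairs, 2.25 as male minus female, was exceeded by 0.461% of all genes. It was not tested, since each pair is 1 replicate and each level is that of 1 mouse.

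The promoter window of Cyp26a1 is shown because it carries the element through which retinoic acid is known to act on this gene (RefSeq, GRCm38.p6, chr19:37697558-37697857, plus strand). Capitals mark a direct repeat of the receptor half-site spaced by 5 bases (DR5), read here on the opposite strand, whose first base lies at -32 from the gene start. A TATAAA match in the same window, left in lower case, lies after the annotated gene start, with its first base at 30.
Cyp26a1: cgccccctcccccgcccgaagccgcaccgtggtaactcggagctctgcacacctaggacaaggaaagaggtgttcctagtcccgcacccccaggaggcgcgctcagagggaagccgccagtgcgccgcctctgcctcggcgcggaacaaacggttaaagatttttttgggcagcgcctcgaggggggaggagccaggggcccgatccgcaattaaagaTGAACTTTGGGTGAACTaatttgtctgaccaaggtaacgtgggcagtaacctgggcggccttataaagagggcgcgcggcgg
DR5 repeats were found in 0.0974% of 32851 windows with both strands searched. Repeats spaced by 1 and 2 bases were found in 0.222% and 0.268%. RefSeq windows were at hand for 7 of the 8 genes, and among them Cyp26a1 alone held a DR5 repeat. A match is a description of the sequence and shows no binding in these cells.

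**Figure D4:**
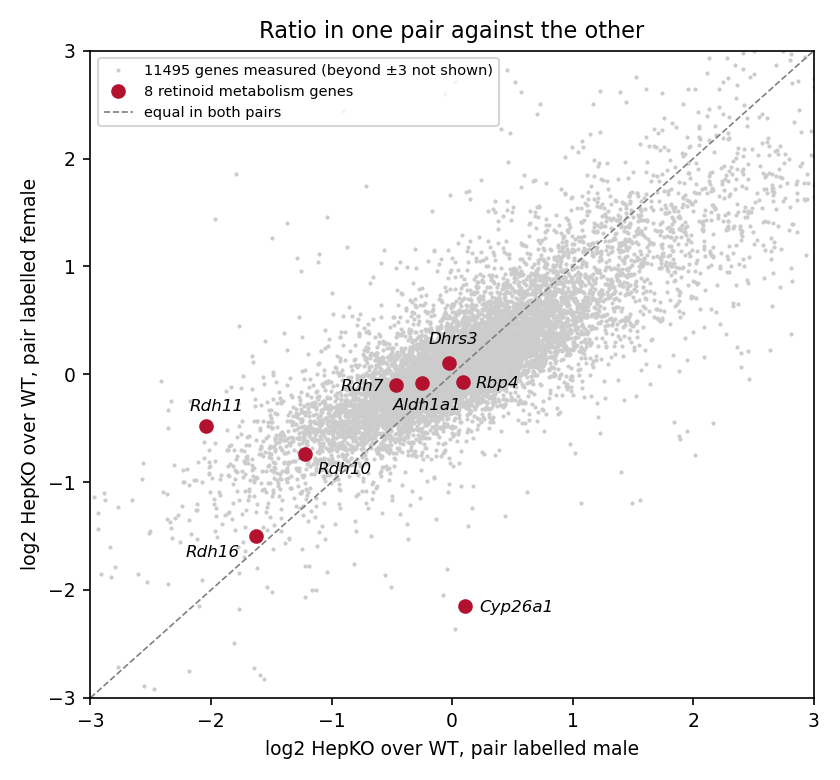
Log2 HepKO over WT in the female pair (vertical axis) against the male pair (horizontal axis) for 11495 genes (grey) and the 8 retinoid metabolism genes (red), within 3 log2 units of 0. Rdh16 lies close to the line of equal ratios, while Rdh11 (male pair lower) and Cyp26a1 (female pair lower) lie far from it.

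Among the nearest patterns to that of Rdh16, by Euclidean distance over the log2 ratios of the 4 arrays, were those of Mxi1 (distance 0.320) and Apoa2 (0.337). Mxi1, which encodes a partner of Max that opposes Myc, had -1.49 ± 0.14, and the apolipoprotein gene Apoa2 had -1.42 ± 0.15. Since the 4 arrays are 2 pairs, these distances rest on few independent values.

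Other genes of retinoid handling moved in both directions. Of 66 listed, 51 were measured, and of these 8 were higher and 5 lower in HepKO, with a median of 0.087. Over all genes 12.0% were higher and 3.71% lower. The list had medians of -0.021 (male pair) and 0.058 (female pair).

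Those that were lower belonged to uptake, ester hydrolysis and oxidoreduction. Lrp1, a receptor for chylomicron remnants that carry retinyl ester, was lower at -0.93 ± 0.16 (adjusted p = 0.0345). The carboxylesterases Ces1e (-1.69 ± 0.15, adjusted p = 0.0150) and Ces1f (-1.38 ± 0.16, 0.0190) were lower, in a list of 9 genes of esterification and ester hydrolysis of which 7 did not pass. In this family the genes are similar in sequence and a probe may not tell them apart. Of 14 other oxidoreductases, Rdh16f2 and the alcohol dehydrogenase Adh4 (-1.15 ± 0.14, adjusted p = 0.0213) were lower, and Adh1, a cytosolic alcohol dehydrogenase that oxidises retinol, was higher at 0.92 ± 0.15 (adjusted p = 0.0315).

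Those that were higher included a second retinoic acid hydroxylase. Cyp26b1 gave 2.71 (male pair) and 2.04 (female pair), with a mean of 2.38 ± 0.22 (adjusted p = 0.0152). Cyp26a1, the other Cyp26 gene measured, had 0.10 and -2.15 in the same pairs. Lpl, which frees fatty acids and retinyl ester from chylomicrons, had 2.26 and 4.47 (mean 3.36 ± 0.56, adjusted p = 0.0334). The aldehyde dehydrogenase Aldh1b1 was higher at 1.73 ± 0.29 (adjusted p = 0.0333), 1 of 6 retinal oxidases measured. Of the 10 genes listed here as induced by retinoic acid, 5 were measured and 4 of these were higher, against 12.0% of all genes. The list was chosen with earlier results of these data known, so the count does not measure a response to retinoic acid. Cyp26b1, Rarb and Lrat are listed here under other roles. Of these, Cyp26b1 was higher (2.38 ± 0.22), whereas Rarb and Lrat did not pass (0.70 ± 0.18 and 0.34 ± 0.15). Cyp26a1 and Dhrs3, which retinoic acid also induces, stand outside that list and did not pass (-1.02 ± 0.57 and 0.039 ± 0.14). The 4 of the list that were higher were Tgm2 (2.28 ± 0.26, adjusted p = 0.0187), Pram1 (1.08 ± 0.19, 0.0351), Asb2 (0.83 ± 0.16, 0.0413) and Nrip1 (0.80 ± 0.16, 0.0446). Pram1 was dim in WT (mean level 6.34), well above background on 3 of 4 WT arrays. Its log2 ratio was 2.48 with the Feature Extraction ratios, so its size depends on the processing. Pram1 and Asb2 are known as retinoic acid targets from human leukaemia cells of the myeloid line. On the same arrays the 10 macrophage markers had a median of 1.87 and a summed intensity of 74645 to 83097 in HepKO, against 9326 to 23218 in WT. The part of those cells in these increases was not tested. The calls of Adh1 (9 of 15 alternatives), Lrp1, Asb2 and Nrip1 (6 of 15 each), Pram1 (4 of 14) and Aldh1b1 (3 of 15) were lost in part of the alternatives, leaving out 1 array among them for all but Aldh1b1.

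Receptors, binding proteins and carotenoid enzymes did not pass. The 6 retinoic acid receptor genes had a median of 0.24, and Rarb (0.70 ± 0.18, adjusted p = 0.0736) and Rxrg (0.66 ± 0.21, 0.112) had the largest ratios. Rbp7, which encodes a cellular retinol-binding protein, was not well above background in WT on any array. Its mean HepKO level was 1.23 times the floor of detection in WT, a value that takes no account of spread. The log2 ratio was 0.17 (male pair) and 0.55 (female pair), and the mean of 0.36 ± 0.17 did not pass (adjusted p = 0.211). With the Feature Extraction ratios and with the authors' value table, the log2 ratio of Rbp7 was 2.73 and passed (adjusted p = 0.0226 and 0.0238). Bco2, which cleaves carotenoids, had -1.22 ± 0.26 (adjusted p = 0.0515), and Bco1, which forms retinal from beta-carotene, had 0.52 ± 0.26 (0.230). Lrat, which esterifies retinol in stellate cells, had 0.34 ± 0.15 (adjusted p = 0.177). The 14 stellate markers, of which Lrat is 1, had a median of 0.79 and a summed intensity of 20086 to 23422 in HepKO, against 10915 to 12216 in WT. Acta2, the brightest of them, weighs most in that sum (mean level 13.61 in HepKO and 12.69 in WT).

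**Figure D5:**
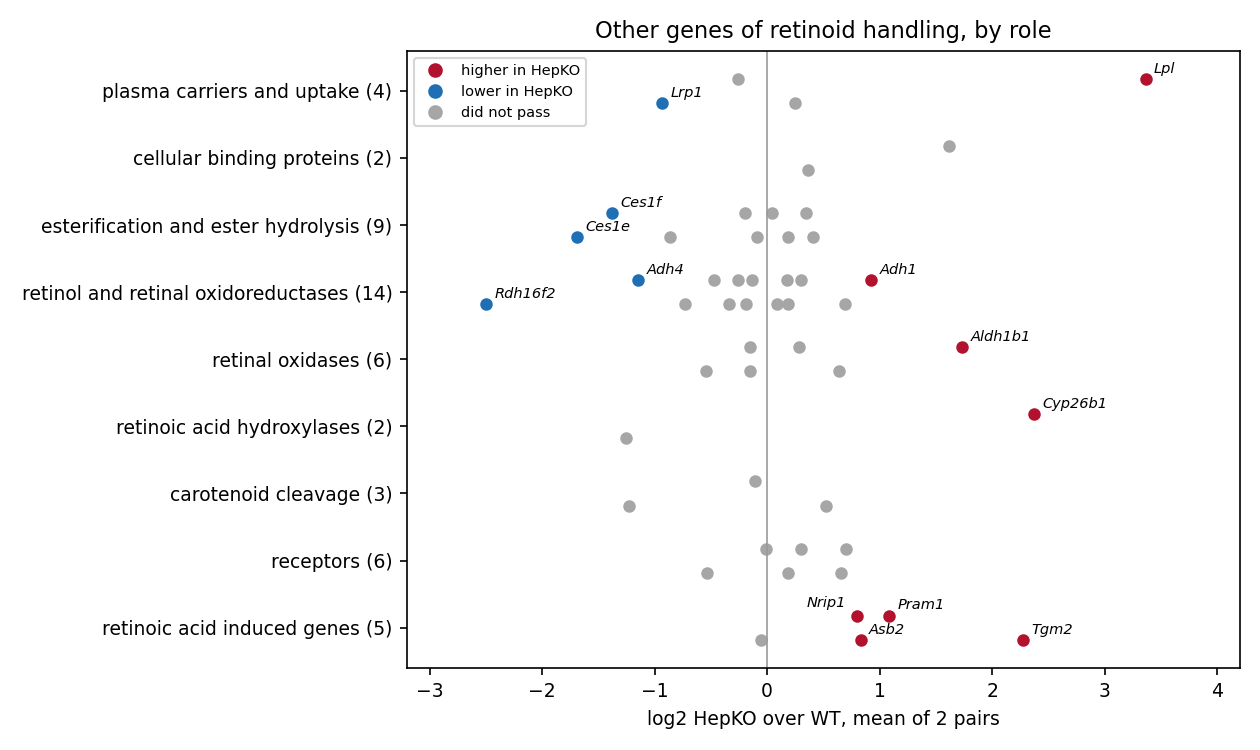
Log2 HepKO over WT (horizontal axis, mean of 2 pairs) of the 51 other genes of retinoid handling measured, by role, with the number of genes in brackets. Red points passed as higher, blue points as lower and grey points did not pass. In the class of retinoic acid induced genes, which leaves out Cyp26a1, Cyp26b1 and Dhrs3, 4 of 5 points are red. Cyp26b1, drawn among the retinoic acid hydroxylases, is red. Of the 10 genes listed in that class, 5 were measured.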

How the data were processed

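Hepatocyte RNA of 2 HepKO and 2 WT mice was measured on 4 two-colour arrays, grouped by their labels. The deposited spot intensity values are the mean of each spot and the median of its local background in 2 channels, read with Agilent Feature Extraction 10.2.1.3, per the file headers. The deposited log10 ratios of red over green had their background and dyes corrected in Feature Extraction, per the file headers. A value table from the authors holds the same log10 ratios, turned to HepKO over WT (r of 1 or -1 with each array's own over 43379 spots, column medians of 0). Both served as alternatives.

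Background was corrected by normexp (offset 50, which pulls ratios of dim probes toward 0), followed by loess within arrays, with limma 3.58.1 in R 4.3.3, giving the 1639 control spots of 45018 no weight. Spots with an outlier flag or a non-uniform background (178 to 260 per array) were left out before the background model was fitted, because background rose to 41157 near spots of female pair replicate 2 (median 29). Ratios were turned to HepKO over WT and the dye orientations averaged to 1 value per pair. Probes well above background on both arrays of a pair in 1 genotype were kept (22844 of 41174). Names came from RefSeq accessions matched to GRCm38.p6 (55.7% of probes), and the brightest kept probe with ratios on all 4 arrays stood for a gene. Between 48.2% and 58.6% of probes were well above background per array and genotype. The number of arrays limits the precision.

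The test was the limma model with an intercept on 2 pair values (1 residual and 3.12 prior degrees of freedom) with Benjamini-Hochberg adjustment over 11495 genes, at 0.05. Normalization and fit were also run on simulated data with known changes, with an outcome not reported here. The simulated pairs differed by random noise alone, unlike the real pairs. The p-values rest on the spread between 2 pairs, drawn toward a variance shared by all genes, which carries more weight than a gene's own spread. Levels were taken per channel after loess and Aquantile normalization. The members, lists, tests and alternatives were chosen with earlier results of these data known. Named genes were the 8 members, Pnpt1 and sex-linked checks, up to 4 genes past the threshold in each role group of the pathway list (otherwise the 2 with the largest ratios), and the 3 nearest patterns to the member with the largest ratio. Some genes that this rule names are not reported here. Lrat, Rdh7's neighbours and the probes of each member were added for description. Alternatives were other background, normalization, filter, probe and dye choices, the authors' ratios, the slide as a random block, and leaving out each array.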

Additional observations from a re-analysis of the deposited data

Results flagged for a closer look

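The Cyp26a1 ratio was far below 0 in the female pair and slightly above 0 in the male pair. In the male pair the HepKO and WT levels lay close. Log2 HepKO over WT was 0.21 and 0.0023 (male pair) against -2.19 and -2.10 (female pair), a difference of 2.25 as male minus female. Of the male arrays, 1 lay close to 0. The difference was not tested, because each pair is 1 replicate, and sex, age and slide differ together between the pairs.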

How the results depend on the processing

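Rdh16 kept its sign in all 15 alternatives (-1.77 to -1.36) and its call in 13, and Rdh10 its sign in all 15 (-1.31 to -0.75) and its call in 7. With the background model fitted on all spots, 0 genes were higher or lower (limma's smallest adjusted p 0.0708, with 3020 genes under 0.05 before adjustment), with 0 members lower and 0 other pathway genes in either direction; Rdh16 was -1.50 and Rdh10 -0.86 (adjusted p = 0.155). Without the filter on dim probes, where 16339 genes were tested, 0 genes, members or pathway genes passed in either direction (smallest adjusted p 0.0689, 4638 unadjusted), with Rdh16 at -1.56 and Rdh10 at -0.98 (0.106). Only 1 member, Rdh16, was called lower, and Rdh10 was not, with median centring (Rdh10 -0.76, adjusted p = 0.0688), the mean of a gene's probes (-0.86, 0.0547), arrays with HepKO in Cy5 alone (-0.89, 0.0539) and background population flags left out, an alternative chosen after seeing the data (-0.75, 0.0682, from the other probe, with 7 members tested). With the slide as a random block, which counts 4 arrays, 2685 genes were higher and 1394 lower, Rdh11 passed (-1.26, adjusted p = 0.0261) and 12 pathway genes were lower and 12 higher; with HepKO in Cy3 alone 683 genes were lower. Leaving out 1 array in turn gave 920 to 1572 genes higher and 202 to 572 lower (202 without male pair replicate 2), 1 to 2 members lower, 4 to 8 pathway genes higher and 4 to 7 lower. Rdh10 then ran from -1.03 to -0.92 (adjusted p 0.0312 to 0.0615) and Rdh16 from -1.70 to -1.43 (0.0080 to 0.0292). Without female pair replicate 1, 4 pathway genes were higher, and without male pair replicate 2, 5 were.

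Signs turned for the members near 0. Dhrs3 was -0.14 with median centring, -0.039 as the mean of probes, -0.0077 with HepKO in Cy3 alone, -0.12 without spots with background population flags and -0.015 to 0.093 with 1 array left out. Rbp4 was -0.61 with median centring (adjusted p = 0.0832), -0.10 with the Feature Extraction ratios and with the authors' value table, -0.36 with HepKO in Cy3 alone and -0.18 to 0.20 with 1 array left out. Aldh1a1 was -0.62 with median centring (adjusted p = 0.0991) and -0.47 with HepKO in Cy3 alone. It was 0.14 with HepKO in Cy5 alone and -0.34 to 0.016 with 1 array left out. Median centring put the median of all genes at 0.18 and gave -0.72 for Rdh7 and 0.31 for Adh1. The cause of these changes was not tested. The ratios within matched pairs are themselves a paired analysis. A further replicate block was not fitted, because the replicate number marks the dye orientation within a pair.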
